A study of Mus musculus with 6 samples.

Results

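The subject is a set of 10 genes that encode repressors of germline genes: 8 subunits of PRC1.6, the variant Polycomb complex built around E2F6, MGA and PCGF6 (E2f6, Mga, Max, L3mbtl2, Pcgf6, Tfdp1, Rnf2 and Yaf2), and 2 methyltransferases of lysine 9 on histone H3 (H3K9), Setdb1 and Ehmt2. They were chosen by symbol, but with earlier results of these data known, so the choice was not blind to the data. All 10 were found among the 18518 gene symbols of the table. RNA sequencing had been done on 6 libraries of E14Tg2A, an established mouse embryonic stem cell line, 3 wild-type (WT) and 3 in which Bach1 had been disrupted with CRISPR/Cas9 (BACH1-KO). Both genotypes had been held for 2 days in medium with serum and 200 units/ml of leukemia inhibitory factor, the cytokine that keeps these cells self-renewing. BACH1 is a heme-binding transcription factor, and the series asks how it bears on pluripotency and differentiation. The knockout cells came from sorted single-cell clones after transfection and puromycin selection. All 3 knockout titles begin alike, and 2 of the codes that end the titles recur in both genotypes. The labels explain neither, and do not say how many clones the libraries represent or that cultures were separate. The libraries were treated as unpaired and independent, so the p-values cover only the spread among the libraries at hand, part of which could be technical.

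PRC1.6 is recruited to DNA by its own sequence-specific subunits. E2F6, a member of the E2F family without the transactivating end, binds with its partner DP1 (the product of Tfdp1) to E2F-type sites. MGA, a scaffold with both a T-box and a basic helix-loop-helix domain, binds with MAX to the E-box CACGTG. The complex carries RING1 or RNF2, the ligases that ubiquitinate histone H2A, together with PCGF6, L3MBTL2, and RYBP or its paralog YAF2. SETDB1 and G9a (encoded by Ehmt2) methylate H3K9. In embryonic stem cells these repressors, with promoter DNA methylation, are known to keep meiotic and germ cell genes silent. E2F6, MGA and PCGF6 mutants are known for de-repression of such genes.

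The libraries held a value above 0 for 16047 to 16159 genes in WT and 17276 to 17455 in BACH1-KO. Depth relative to the first WT library, estimated from the steps of values under 0.1 FPKM (fragments counted per kilobase of transcript and relative to library size), ran from 1 to 1.105 in WT and from 1.005 to 1.175 in BACH1-KO; the absolute depth is unknown. Bach1 transcript was at 7.97, 8.39 and 8.47 FPKM in WT and 10.5, 10.4 and 10.4 FPKM in BACH1-KO, and a transcript level does not check an edited coding sequence. All 9 markers of embryonic stem cells were expressed in both genotypes (summing to between 9468 and 10308 FPKM in WT and between 6648 and 6904 FPKM in BACH1-KO), 8 of them lower and 1 higher in BACH1-KO. Transcripts of another cell type moved with genotype: all 12 hepatocyte markers were higher in BACH1-KO. They summed to between 11.2 and 17.0 FPKM in WT and between 886 and 915 FPKM in BACH1-KO. None of these markers was at 0 in all 3 knockout libraries. Neural progenitor markers summed to between 5.04 and 5.94 FPKM in WT and between 11.2 and 11.8 FPKM in BACH1-KO, where 1 of 3 tested was higher and 1 lower. Fibroblast feeder markers summed to between 22.8 and 24.1 FPKM in WT and between 12.7 and 13.4 FPKM in BACH1-KO, with both tested markers lower. The part of these transcripts in the results below was not tested.

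All 10 genes were expressed in both genotypes, and their transcript levels did not all change in the same direction. In BACH1-KO, 4 of the 10 rose (E2f6, Yaf2, Pcgf6 and Rnf2), 5 fell (Mga, Ehmt2, Setdb1, Max and Tfdp1) and L3mbtl2 did not pass the test. The test was limma on log2(FPKM + 1) over the 12187 genes whose mean reached 1 FPKM, with a Benjamini-Hochberg adjusted p under 0.05. So many genes passed it (77.0% of all tested genes, 37.3% higher and 39.7% lower) that a count of 9 in 10 is near the background. The median log2 fold change was -0.20 over the 10 members and -0.01 over all tested genes. Summed over the 10 members, the WT libraries held 472 to 491 FPKM and the BACH1-KO libraries 411 to 419 FPKM. In these bulk samples, fewer cells that express a gene and less RNA per cell cannot be told apart.

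**Figure D1:**
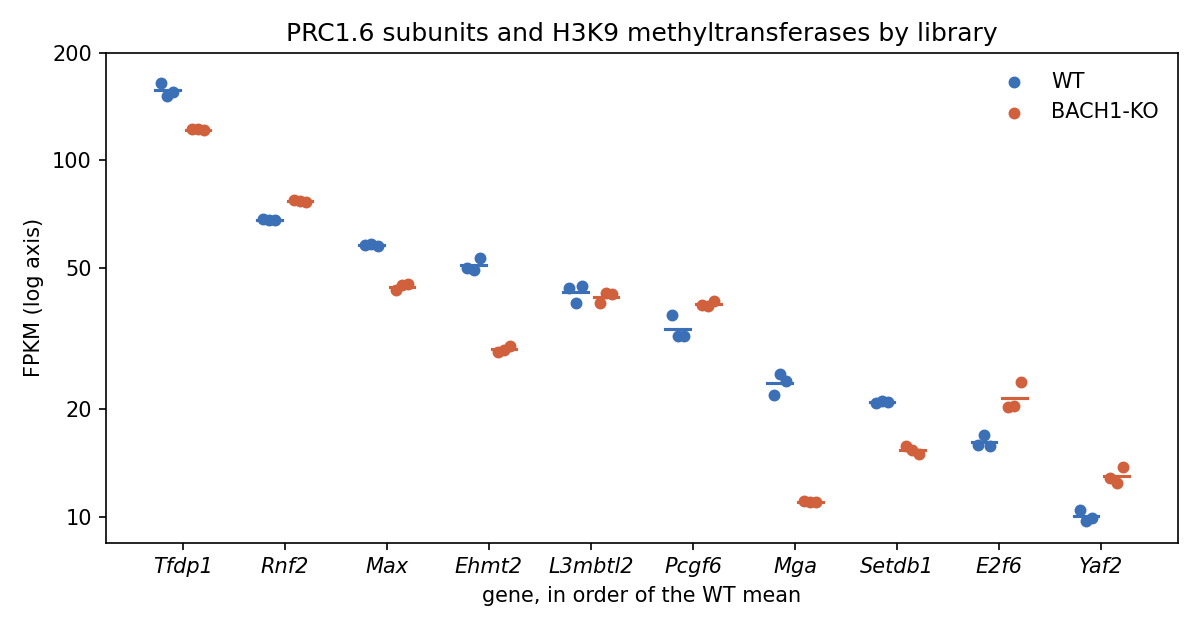
FPKM of the 10 members (log axis) in each of the 3 WT (blue) and 3 BACH1-KO (orange) libraries, with points for libraries and short lines for means, ordered by the WT mean. Tfdp1 is the most abundant in both genotypes, and Mga drops from the seventh place of the order to the last.

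The members with the clearest fall in transcript encode a DNA-binding scaffold and a methyltransferase. Mga (chromosome 2, 119897228 to 119969581, plus strand, mm10) encodes the scaffold that ties MAX to the complex. The WT libraries had 22.0, 25.1 and 24.1 FPKM of Mga and the BACH1-KO libraries 11.1, 11.0 and 11.0 FPKM. The lowest WT library was thus well above every knockout library. By limma the log2 fold change was -1.04, with SE 0.05 and adjusted p = 8.57e-07, a mean 2.15 times lower. The absolute change was larger than that of 89.0% of tested genes.

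Ehmt2 (chromosome 17, 34898469 to 34914052, plus strand) encodes G9a, which dimethylates H3K9 as a heterodimer with GLP. It stood at 50.0, 49.3 and 53.2 FPKM in WT and at 29.0, 29.3 and 30.1 FPKM in BACH1-KO. All WT libraries lay above all knockout libraries, with little spread within either group. By limma the log2 fold change was -0.77, with SE 0.04 and adjusted p = 8.86e-07, and 79.4% of tested genes had a smaller absolute change. Mga and Ehmt2 were the 2 members that also passed when tested against a fold change of 1.5 (limma treat, adjusted p = 2.22e-04 for Mga and 0.00696 for Ehmt2), a test that 19.0% of all tested genes passed, 10.9% as higher and 8.16% as lower.

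The change of Setdb1, the other H3K9 methyltransferase, was smaller. This enzyme trimethylates H3K9 and works with TRIM28. Setdb1 (chromosome 3, 95323525 to 95357202, minus strand) was at 20.9, 21.1 and 21.0 FPKM in WT and 15.8, 15.4 and 15.0 FPKM in BACH1-KO. The WT libraries were within a narrow range and all above the knockout range. The log2 fold change came to -0.42 (SE 0.04, limma adjusted p = 2.20e-05).

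Among the genes of the DNA-binding subunits, E2f6 moved opposite to Tfdp1, the gene for the dimer partner of E2F6. E2f6 (chromosome 12, 16810963 to 16839742, plus strand) was at 15.9, 16.9 and 15.8 FPKM in WT and 20.3, 20.5 and 23.8 FPKM in BACH1-KO. The groups did not overlap, and 1 knockout library, the third column, was above the other two. E2f6 had a log2 fold change of 0.39 (SE 0.07, limma adjusted p = 7.96e-04). Tfdp1 (chromosome 8, 13338751 to 13378448, plus strand), which encodes DP1, the partner of all classical E2F proteins, was at 165, 151 and 156 FPKM in WT and 123, 122 and 121 FPKM in BACH1-KO. It was the most abundant member in every library, and its groups did not overlap. Tfdp1 had a log2 fold change of -0.36 (SE 0.04, limma adjusted p = 3.12e-05). Max (chromosome 12, 76937269 to 76962201, minus strand), the shared partner of MGA and the MYC and MXD proteins, was at 58.0, 58.1 and 57.4 FPKM in WT and 43.2, 44.6 and 44.9 FPKM in BACH1-KO. Every WT library was above every knockout library, with a log2 fold change of -0.38 (SE 0.03, limma adjusted p = 1.17e-05). The transcripts of both subunits of the MGA and MAX pair were thus lower, while of the E2F6 and DP1 pair 1 transcript was higher and 1 lower. Protein levels were not measured.

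The transcripts of subunits of the ubiquitin ligase module rose by small amounts. Rnf2 (chromosome 1, 151458004 to 151500955, minus strand), which encodes the ligase RING1B, was at 68.5, 68.0 and 67.8 FPKM in WT and 77.6, 76.8 and 76.3 FPKM in BACH1-KO. The change was small, but so was the spread, and the groups were apart, with a log2 fold change of 0.17 (SE 0.03, limma adjusted p = 6.05e-04). Pcgf6 (chromosome 19, 47033617 to 47050906, minus strand), the PCGF protein that defines the complex, was at 36.8, 32.1 and 32.2 FPKM in WT and 39.4, 39.1 and 40.3 FPKM in BACH1-KO. The first WT library was the highest of its group and still below all knockout libraries, with a log2 fold change of 0.23 (SE 0.06, limma adjusted p = 0.00527). Yaf2 (chromosome 15, 93284278 to 93336935, minus strand), which bridges the ligase to its partners, was the least abundant member in WT. It was at 10.5, 9.75 and 9.90 FPKM in WT and 12.8, 12.4 and 13.8 FPKM in BACH1-KO, without overlap, with a log2 fold change of 0.34 (SE 0.05, limma adjusted p = 5.35e-04).

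L3mbtl2 (chromosome 15, 81663889 to 81688315, plus strand), an MBT-domain protein that compacts chromatin and is needed to assemble the complex, was at 43.7, 39.8 and 44.3 FPKM in WT and 39.7, 42.4 and 42.2 FPKM in BACH1-KO. The libraries of the genotypes interleaved. The log2 fold change was -0.04 (limma adjusted p = 0.512) with a 95% interval from -0.15 to 0.08, which limits a difference to a small one in either direction without showing that there is none. An exact two-sided permutation test gave p = 0.5 for L3mbtl2. For each of the other 9 members the exact test gave p = 0.1, which is the lower limit of this design. The libraries of those 9 members did not overlap between genotypes, as was so for 79.3% of tested genes.

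**Figure D2:**
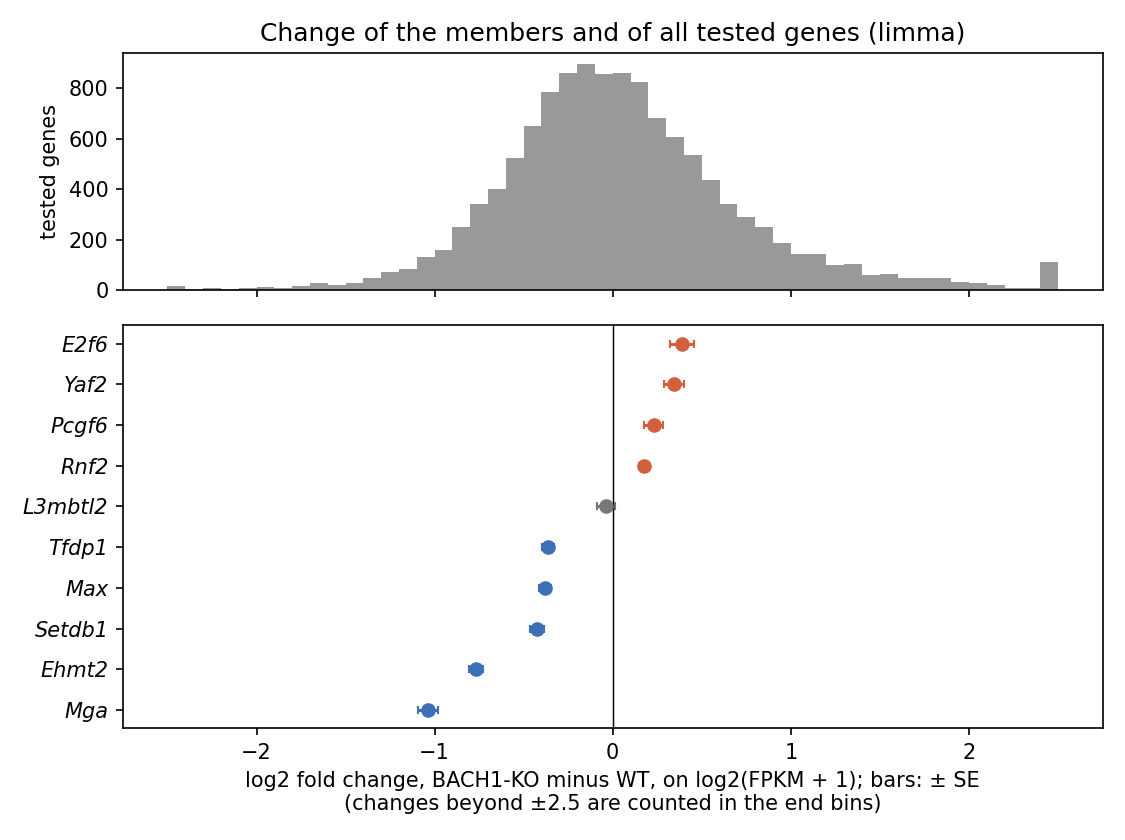
Upper panel, number of tested genes (vertical axis) by log2 fold change (BACH1-KO minus WT, horizontal axis); lower panel, the same quantity for the 10 members with bars of ± SE, orange for higher, blue for lower and grey for not past the threshold. Mga (-1.04) and Ehmt2 (-0.77) lie farthest from 0 among the members, and the distribution of all tested genes extends well beyond both.

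FPKM are per length, so levels of different genes can be set side by side, within what the length model of the authors' counting allows. In WT the mean levels ran Tfdp1, Rnf2, Max, Ehmt2, L3mbtl2, Pcgf6, Mga, Setdb1, E2f6 and Yaf2, from 157 ± 6.70 down to 10.0 ± 0.384 FPKM (SD, n = 3), and no neighbours in this order had overlapping libraries. In BACH1-KO the order was Tfdp1, Rnf2, Max, L3mbtl2, Pcgf6, Ehmt2, E2f6, Setdb1, Yaf2 and Mga, from 122 ± 0.589 to 11.0 ± 0.0437 FPKM. There the libraries of L3mbtl2 and Pcgf6 overlapped and those of the other neighbours did not. Mga moved from above Setdb1, E2f6 and Yaf2 in WT to below all 3 in BACH1-KO, and E2f6 from below Setdb1 to above it.

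Several members have paralogs that can take their place or compete with them, and the share of the member within the summed FPKM of its paralogs was compared. Pcgf6 made up 30.4% ± 1.21 of the 6 PCGF transcripts in WT and 36.3% ± 0.283 in BACH1-KO (SD, n = 3). Its own rise stood beside a fall of Pcgf2, from 28.7 ± 1.64 to 20.9 ± 0.399 FPKM, and a rise of Bmi1, from 4.10 ± 0.287 to 8.41 ± 0.637 FPKM, both subunits of other PRC1 complexes. E2f6 made up 7.57% ± 0.340 of E2f1 to E2f8 in WT and 12.0% ± 0.830 in BACH1-KO. The most abundant of that family, E2f4, fell from 117 ± 1.59 to 74.1 ± 2.83 FPKM. Ehmt2 went from 79.0% ± 1.43 to 72.8% ± 0.973 of the sum with Ehmt1 (GLP), which was itself lower at 13.5 ± 0.827 and 11.0 ± 0.386 FPKM. Tfdp1 went from 91.8% ± 0.441 to 87.7% ± 0.174 of the sum with Tfdp2, and Rnf2 from 97.5% ± 0.214 to 96.4% ± 0.521 of the sum with Ring1.

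In each of these 5 shares the libraries of the genotypes did not overlap. For single genes, that was so for 79.3% of those tested. Shares of other genes were not computed, so this count is not a result about the members. The shares of Yaf2 with Rybp (27.1% ± 0.823 and 26.2% ± 1.47) and of Setdb1 with Setdb2 (75.4% ± 1.00 and 74.2% ± 1.01) overlapped between genotypes. Yaf2 and Rybp were both higher in BACH1-KO, and Setdb1 and Setdb2 both lower. Of the 7 shares tested, the exact two-sided permutation test gave p = 0.1 for 5 (Benjamini-Hochberg adjusted p = 0.14), p = 0.4 for Yaf2 (adjusted p = 0.40) and p = 0.3 for Setdb1 (adjusted p = 0.35). With 3 against 3 libraries no share could pass.

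**Figure D3:**
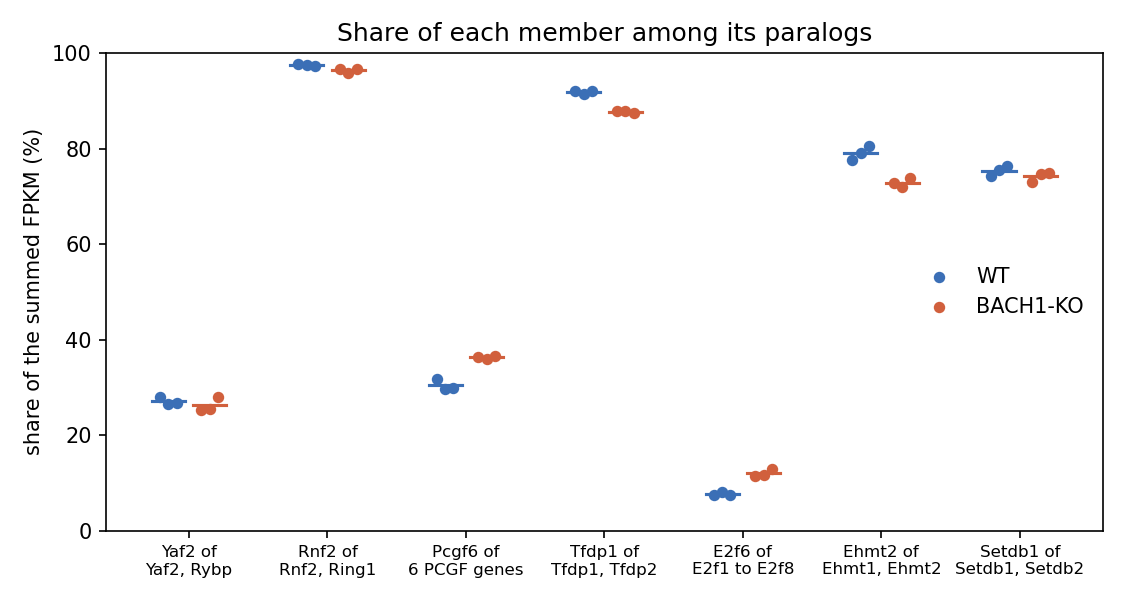
Share (vertical axis, percent of summed FPKM, from 0) of 7 members among their paralogs in each WT (blue) and BACH1-KO (orange) library, with lines for means. Pcgf6 and E2f6 hold larger shares in BACH1-KO, Ehmt2 and Tfdp1 smaller ones, and the points of Yaf2 and Setdb1 overlap.

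For the other genes of the pathway, counts by list stand against the 77.0% of all tested genes that were called, 37.3% higher and 39.7% lower, and shares near these are not results about a list. Of the genes for the 8 remaining PRC1.6 subunits 5 rose, 2 fell and 1 did not pass, with a median log2 fold change of 0.22. Rybp, the paralog of Yaf2, rose from 27.0 ± 0.0976 to 36.6 ± 1.15 FPKM, and Cbx3, which encodes the heterochromatin protein HP1 gamma, from 78.6 ± 5.12 to 99.5 ± 5.52 FPKM. Both lie on chromosome 6, of whose 541 tested genes 59.3% were higher in BACH1-KO (median log2 fold change 0.31). Tfdp2 rose from 14.0 ± 0.573 to 17.1 ± 0.202 FPKM, and Wdr5, a WD-repeat protein also found in H3K4 methyltransferase complexes, fell from 81.0 ± 2.72 to 63.3 ± 0.697 FPKM. None of the 10 members lies on chromosome 6, and the chromosomes they lie on were not examined in this way.

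Of 22 tested genes for subunits of the other PRC1 complexes 9 rose, 8 fell and 5 did not pass (median log2 fold change 0.06), close to the 77.0% called among all tested genes. Besides Bmi1 and Pcgf2, Phc3, a Polyhomeotic protein of canonical PRC1, fell from 3.40 ± 0.261 to 1.34 ± 0.0638 FPKM and Csnk2a1, a catalytic subunit of casein kinase 2, from 70.4 ± 5.34 to 47.4 ± 1.00 FPKM. Of 10 genes of the E2F and pocket protein family 4 rose, 5 fell and 1 did not pass (median -0.23). The pocket proteins, which bind several E2F factors but not E2F6, diverged: Rbl1 fell from 16.1 ± 0.308 to 7.54 ± 0.418 FPKM, Rbl2 fell from 5.31 ± 0.259 to 2.94 ± 0.318 FPKM, and Rb1 rose from 4.39 ± 0.0230 to 8.38 ± 0.474 FPKM. Of 10 genes for other partners of MAX and MLX 2 rose, 5 fell and 3 did not pass (median -0.08). Myc fell from 12.4 ± 3.96 to 1.44 ± 0.319 FPKM, Mxi1, a repressive partner, from 13.0 ± 0.176 to 6.72 ± 0.231 FPKM, and Mlx from 53.5 ± 0.864 to 30.0 ± 1.39 FPKM, while Mxd3 rose from 5.56 ± 0.482 to 7.45 ± 0.490 FPKM.

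In the wider H3K9 machinery 6 of 19 tested genes rose, 8 fell and 5 did not pass (median log2 fold change -0.09), again near the 77.0% called over all tested genes. Atrx, a chromatin remodeller at heterochromatin, fell from 24.6 ± 0.441 to 7.23 ± 0.0704 FPKM (log2 fold change -1.64), a larger change than that of any of the 10 members. Cdyl2, a chromodomain protein, fell from 15.9 ± 0.175 to 6.60 ± 0.305 FPKM, and Uhrf1, which couples DNA methylation to replication, from 136 ± 3.68 to 103 ± 2.46 FPKM. Cdyl, a chromodomain partner of G9a, rose from 19.3 ± 1.12 to 28.4 ± 0.275 FPKM. Of 10 tested H3K9 demethylase genes 2 rose, 5 fell and 3 did not pass (median -0.15). Jmjd1c fell from 22.4 ± 0.476 to 12.2 ± 0.106 FPKM and Kdm4c from 57.0 ± 3.17 to 32.1 ± 0.210 FPKM, while Kdm4a rose from 11.5 ± 0.530 to 20.2 ± 0.452 FPKM and Kdm3a, on chromosome 6, from 20.9 ± 1.40 to 28.4 ± 0.117 FPKM.

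Germline genes known as targets of these repressors or of promoter DNA methylation were mostly higher in BACH1-KO. Of 34 listed genes 31 were in the table and 28 were tested: 23 rose, 2 fell and 3 did not pass, where 37.3% of all tested genes were higher. The median log2 fold change was 1.16, against -0.01 for all tested genes. Of the 28, 16 were called higher and at least doubled, as were 1393 of all 12187 tested genes. A mean under 10 FPKM was found for 15 of the 28, and of all tested genes in that range 42.7% were higher and 30.4% lower. Of the 28, 3 (Figla, Brdt and Asz1) had a WT mean under 1 FPKM and entered the test only through their level in BACH1-KO. Having entered that way, these 3 could hardly have been called lower. They are included in the 23 that rose, in the 16 that doubled and in the median. The rise of germline genes in these libraries was known when the list was written, so the count is not independent evidence of its direction.

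Sycp3, an axial element protein of meiotic chromosomes, was at 8.26, 7.08 and 7.92 FPKM in WT and 94.5, 98.3 and 96.2 FPKM in BACH1-KO, a mean 12.4 times higher. Taf7l, a germ cell TFIID subunit, was at 1.34, 1.39 and 1.11 FPKM in WT and 15.5, 13.8 and 13.7 FPKM in BACH1-KO. Stra8, which marks the entry into meiosis, was at 21.4, 24.3 and 20.6 FPKM in WT and 203, 205 and 213 FPKM in BACH1-KO. In all 3 genes the knockout libraries lay far above every WT library. Figla, an oocyte transcription factor, was listed at 0 in 2 WT libraries and was at 0.130 FPKM in the third, against 7.42, 6.33 and 5.10 FPKM in BACH1-KO. Smaller rises were those of Tex19.1, from 20.9 ± 1.11 to 57.3 ± 3.55 FPKM, of Mael, which acts in transposon silencing, from 6.53 ± 0.206 to 18.7 ± 0.940 FPKM, of Mei4, a meiotic recombination factor, from 1.76 ± 0.0833 to 5.92 ± 0.160 FPKM, and of Sohlh2, a germ cell transcription factor, from 22.8 ± 0.458 to 43.5 ± 0.433 FPKM. Leaving out Figla, which entered the test only through its level in BACH1-KO, the limma adjusted p ran from 6.97e-09 for Sycp3 to 5.15e-07 for Mei4.

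A few genes of the list went the other way. Those that fell were Stag3, a meiotic cohesin subunit, from 20.8 ± 1.91 to 7.83 ± 0.0779 FPKM, and Sycp1, the transverse filament of the synaptonemal complex, from 2.73 ± 0.332 to 1.63 ± 0.154 FPKM (both named after their values were seen). Tuba3a, Smc1b and Tex15 did not pass. Tuba3a and Tuba3b are near-identical, so reads may have been shared between them. Mei1, Sycp2 and Tdrd1 were under the filter, at mean levels of 0.0970, 0.141 and 0.200 FPKM in WT and 0.396, 1.15 and 1.36 FPKM in BACH1-KO. Of the tested genes 6 lie on chromosome 6, Stra8 and Figla among them, and without that chromosome 18 of 22 rose and 2 fell (median 1.05; this split was added after the data were seen). Late male germ cell markers were near 0: the 4 of 8 found in the table summed to at most 0.338 FPKM in WT and to between 0.316 and 0.464 FPKM in BACH1-KO. Markers of the 2-cell-like state together reached 10.1 to 11.3 FPKM in WT, against 26.1 to 27.3 FPKM in BACH1-KO. Of these 8 markers 5 were tested, with 4 higher and 0 lower. Tcstv1 was listed at 0 in all knockout libraries but not in all WT libraries. The part of these markers in the result was not tested.

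**Figure D4:**
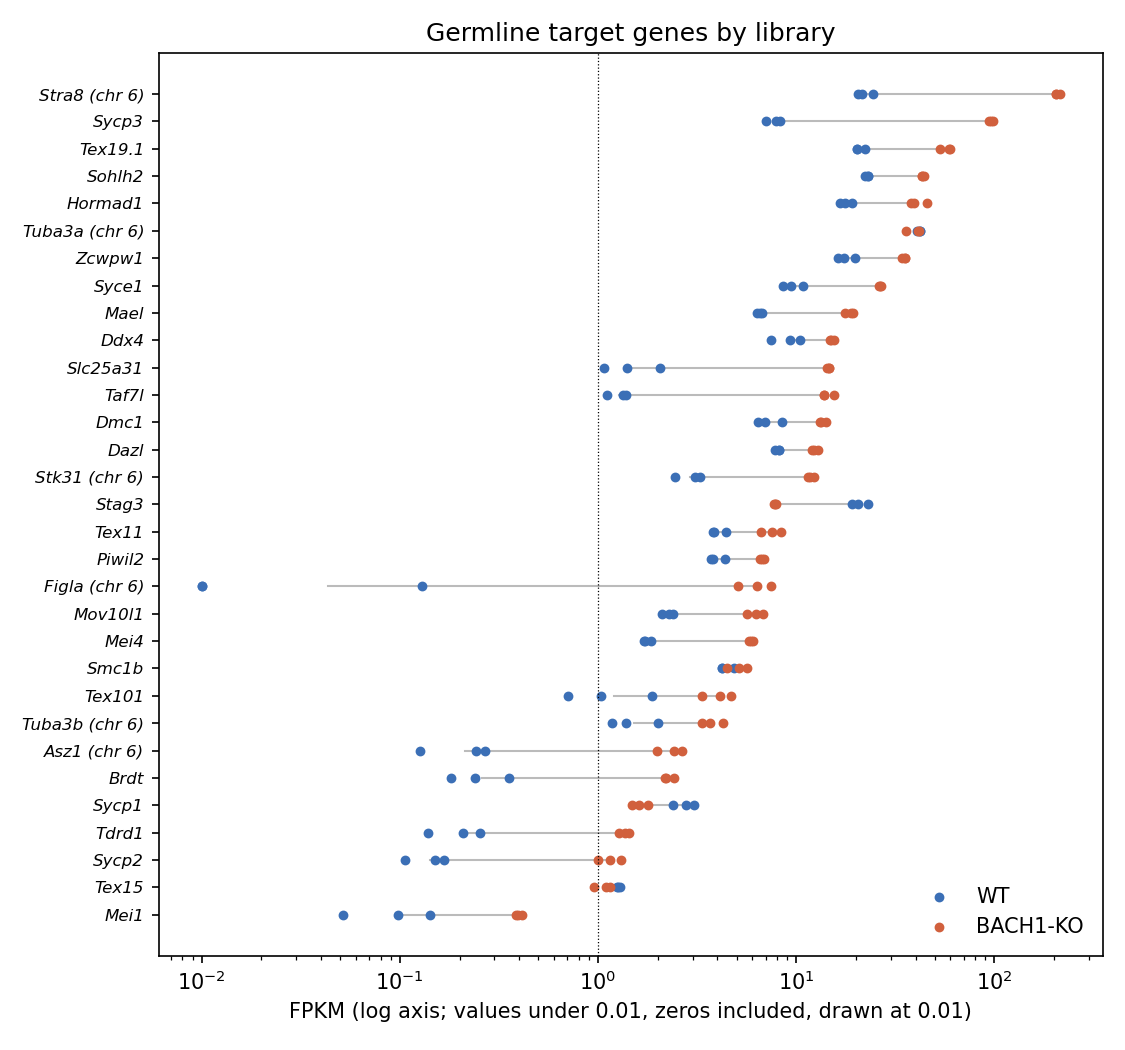
FPKM (log axis) of the 31 germline genes in the table, in each WT (blue) and BACH1-KO (orange) library, with a grey line between the group means and a dotted line at 1 FPKM. Sycp3, Stra8 and Taf7l show wide gaps, and the points of Stag3 and Sycp1 are reversed.

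The promoters of these germline genes can be read for the sequences that E2F6 and MGA are known to bind. RefSeq promoter sequences (build GRCm38.p6, the assembly of mm10) matched 29 of the 34 germline genes and 9 of the 10 members. The 250 bases before the first listed start of each gene were searched on both strands for the E2F6-type site TCCCGC and for the E-box CACGTG. The 4 sequences shown are those of the germline genes with the smallest adjusted p that hold an E2F6-type site, shown so that the position of each kind of site can be seen. They are written 5′ to 3′ on the strand of the gene, ending at the base before the start, and capitals mark the E2F6-type site (TCCCGC, or GCGGGA where it lies on the other strand) and the E-box.
Sycp3 (chr10:88459337-88459586, plus strand): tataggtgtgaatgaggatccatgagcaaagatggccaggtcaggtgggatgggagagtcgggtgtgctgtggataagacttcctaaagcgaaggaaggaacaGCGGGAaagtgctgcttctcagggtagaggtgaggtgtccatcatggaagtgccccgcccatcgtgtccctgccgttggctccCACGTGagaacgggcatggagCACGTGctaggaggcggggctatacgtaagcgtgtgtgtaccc
Mael (chr1:166238745-166238994, minus strand): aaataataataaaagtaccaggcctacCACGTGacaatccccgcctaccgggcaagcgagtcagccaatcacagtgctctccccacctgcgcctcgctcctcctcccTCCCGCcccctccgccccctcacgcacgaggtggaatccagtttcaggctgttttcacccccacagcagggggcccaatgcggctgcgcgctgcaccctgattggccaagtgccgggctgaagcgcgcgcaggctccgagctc
Tex19.1 (chr11:121145893-121146142, plus strand): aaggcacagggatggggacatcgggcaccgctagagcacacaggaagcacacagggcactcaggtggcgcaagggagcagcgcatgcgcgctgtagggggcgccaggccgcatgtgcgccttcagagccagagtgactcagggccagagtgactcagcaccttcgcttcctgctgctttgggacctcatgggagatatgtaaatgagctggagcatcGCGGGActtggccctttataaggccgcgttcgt
Hormad1 (chr3:95559427-95559676, plus strand): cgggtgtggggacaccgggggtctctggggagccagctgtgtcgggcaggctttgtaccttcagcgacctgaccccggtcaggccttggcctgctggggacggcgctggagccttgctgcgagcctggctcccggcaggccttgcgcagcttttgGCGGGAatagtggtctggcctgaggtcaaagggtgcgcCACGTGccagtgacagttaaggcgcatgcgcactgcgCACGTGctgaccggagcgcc

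In the Sycp3 sequence the E2F6-type site began 147 bases before the start, and 2 E-boxes followed at 64 and 43 bases. Hormad1, which encodes a protein of meiotic chromosome axes, had the same arrangement, with the E2F6-type site at 95 bases and E-boxes at 57 and 20 bases. It rose from 17.8 ± 1.24 to 41.0 ± 3.91 FPKM. Mael had the E-box farther out, at 223 bases, and the E2F6-type site at 143 bases. Tex19.1 had an E2F6-type site at 33 bases and no E-box in this window.

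The E-box was present in 12 of 29 germline promoters (41.4%), in 805 of the 9192 tested genes with a promoter in the table (8.76%) and in 6.05% of all 27025 promoters. The E2F6-type site was present in 10 of 29 (34.5%), close to the share in tested genes (31.5%) and above that of all promoters (16.9%). Its longer form TTCCCGC, which contains the first motif, was in 7 of 29 germline promoters (24.1%) and in 7.46% of tested genes. Both the E-box and the E2F6-type site were in 4 of 29 (13.8%; Sycp3, Hormad1, Mael and Ddx4) and in 2.93% of tested genes. The GC content of the windows was alike, with a median of 59.6% in germline promoters and 60% in tested genes. Both genes that fell, Stag3 and Sycp1, also held an E-box, while Stra8, Figla, Sohlh2 and Mei4, among the genes that rose, held neither the E-box nor the E2F6-type site. The list was drawn in part from known targets of the complex, and a match is a description of the letters in this window.

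**Figure D5:**
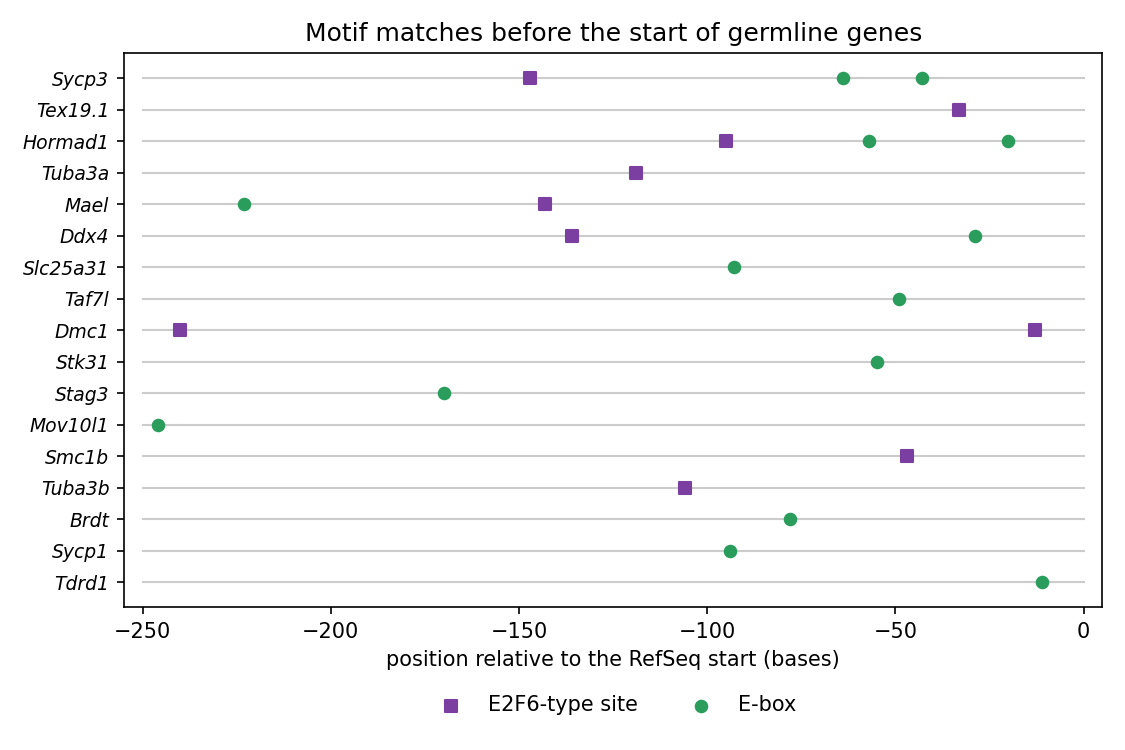
Positions of E2F6-type sites (purple squares) and E-boxes (green circles) in the 250 bases before the RefSeq start (horizontal axis, bases) for the germline genes that are in the FPKM table and hold either one, ordered by level in BACH1-KO with the highest on top. Sycp3 and Hormad1 share a layout of 1 E2F6-type site followed by 2 E-boxes.

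The same search found an E2F6-type site in the promoters of 3 of the 9 members (33.3%), near the 31.5% of tested genes. An E-box was in 2 of the 9 (22.2%), against 8.76% of tested genes, a count too small to be read as a result. Tfdp1, which fell, held 3 such sites and 1 E-box, and E2f6 and Rnf2, which rose, held 1 site each, that of E2f6 at 53 bases. Ehmt2, which fell, held 2 E-boxes, at 232 and 26 bases. Mga, Max, L3mbtl2, Pcgf6 and Setdb1 held neither motif in this window. Members with and without a match were found among those that rose and among those that fell.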

How the data were processed

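Per the labels' protocols, Trizol was used to extract RNA and a TruSeq kit to build the libraries. The deposited FPKM table has 1 column per library. Cufflinks and mm10 are named in the submitters' processing notes; for the aligner, annotation, versions and strand handling nothing is given in the sources used here. A column shows its genotype but not its sample title, so columns were used as unnumbered replicates. FPKM is a share of the library, so large rises of some transcripts lower others. Rows with a number in place of a symbol (23, with 0.0987% of the summed FPKM) were left out.

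Log2(FPKM + 1) was fitted in R 4.3.3 with limma 3.58.1, using lmFit and an eBayes step that models the mean-variance trend, for the 12187 genes whose mean reached 1 FPKM. The two-sided comparison of 3 BACH1-KO with 3 WT libraries was adjusted by Benjamini-Hochberg over all of these genes. Levels are means ± SD over 3 libraries. Gene positions are from GENCODE M21 (GRCm38, the assembly of mm10). Alternatives changed the pseudocount, filter, scaling, prior variance and null fold change, and left out each column. In each list, up to 4 genes (8 for germline genes) with the smallest adjusted p were named. The genes nearest in pattern to the most changed member, also planned, are not reported here. The members and lists were chosen with earlier results of these data known.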

Additional observations from a re-analysis of the deposited data

How the results depend on the processing

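The calls of the 10 members, 4 higher and 5 lower, were the same genes with a pseudocount of 0.1 FPKM, with no filter, with a filter at 5 FPKM, under median-of-ratios scaling and quantile normalization, with a constant prior variance, and without any 1 of the 6 columns. Tested against a fold change of 1.5 (limma), 0 members were higher (0 also at an unadjusted p under 0.05) and 2 lower. In that test the germline list had 17 higher genes, with Figla, Brdt and Asz1 among them, and 1 lower. Over all genes 1325 were higher and 994 lower. With no filter 6580 genes were higher and 5075 lower, so that 56.5% of called genes were higher in place of 48.4%. With a filter at 5 FPKM fewer genes were tested, and 2942 of them were higher. That filter left out Figla, Brdt and Asz1, and the germline list had 16 higher genes and 1 lower. After quantile normalization the log2 fold change of L3mbtl2 was 0.033 (adjusted p = 0.569) and the Setdb1 share differed by 0.70 percentage points in place of -1.20; the cause was not tested. Of 555 values of 43 named genes under alternatives, 534 kept direction and side of the threshold, 20 lost the call, all when tested against a fold change of 1.5, and 1 reversed. No paired analysis was possible because no column could be matched to a sample title, and the title codes that recur in both genotypes are not explained in the labels. With no read counts, the precision of low values such as those of Figla is not known.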
